A study of Homo sapiens with 14 samples.

Results

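The numbered zinc finger genes of the 19q13.1 cluster are a run of neighbouring genes on the long arm of human chromosome 19. Members were taken by symbol and position. They are the genes named ZNF with a number, and with or without a closing letter, that start between 30 and 39 Mb on chromosome 19 in the authors' table, whose notes name the genome build hg38. This gave 33 members of 35718 genes, and 30 of the 33 had enough reads to be tested.

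Most genes of this cluster belong to the KRAB zinc finger family. A protein of that family binds DNA through a string of C2H2 zinc fingers, and its KRAB domain recruits the co-repressor TRIM28 (KAP1). TRIM28 in turn brings the histone methyltransferase SETDB1, which places trimethylation on lysine 9 of histone H3, and many of the family's targets are transposable elements. The same mark is found over the bodies of zinc finger genes in clusters such as this one. The HUSH complex reads and spreads that mark: TASOR is its scaffold, MPP8 binds the mark through a chromodomain and Periphilin (gene PPHLN1) binds RNA. TASOR2 is the paralogue of TASOR and takes its place in a second assembly, called HUSH2. ZNF146, ZNF260, ZNF507 and ZNF536 are members whose proteins carry zinc fingers and no KRAB domain.

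The study asked how the transcriptome changes when subunits of these complexes are lost. All groups were K562, an established human chronic myeloid leukaemia cell line that makes embryonic and fetal globins, and all carried dCas9-KRAB, a catalytically dead Cas9 fused to a repressor domain that silences a promoter chosen by its guide RNA. The groups were knockdowns of TASOR (guides sg1-TASOR and sg2-TASOR), of TASOR2 (sg1-TASOR2, sg2-TASOR2 and sg3-TASOR2), of MPP8 (sg1-MPP8 and sg2-MPP8) and of PPHLN1 (sg1-PPHLN1 and sg2-PPHLN1), untransduced cells, and cells with sgAAVS1, a guide to a safe-harbour locus that served as the negative control. Total RNA was taken 7 days after transduction, and the repressor fused to dCas9 is itself a KRAB domain that every group, controls included, carried.

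The authors deposited group means only, as log2 values on a scale where 1 unit is close to 1 read in 1000000. The number of libraries behind each mean was inferred from the spacing of its lowest values, and the counting intervals below rest on it. That spacing fitted 2 libraries each for the TASOR, TASOR2, MPP8 and PPHLN1 knockdowns and untransduced cells, and 3 libraries for sgAAVS1. The labels list 3 TASOR2 libraries, and how they entered the mean was not given in the sources used here. With group means there is no SD or n over libraries, no test and no p-value, and the spread between guides or cultures could not be measured. A value after ± is therefore the half-width of the 95% Poisson counting interval of a log2 difference. It covers counting error only, and PCR copies without molecular identifiers are not independent molecules. A gene was called higher or lower by a rule of size: its log2 means had to lie at least 1 apart, with the higher one above 0 and the counting interval clear of 0.

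The depth recovered from the value of 1 read lay between 5857937 reads per library in the TASOR2 knockdown and 7406968 in untransduced cells. K562 markers were present in every group, 12 of 12 with means between 4.53 and 8.79, and of 14 markers of other cell types 9 were above 0 in no group. Among those above 0 in all groups, COL1A1 and EPCAM had means of up to 6.37, and their part in the results was not tested. Each targeted gene was lower in its own knockdown than in sgAAVS1. TASOR (FAM208A in the table) had a mean of 3.29 in its knockdown, against 7.22 in sgAAVS1, a difference of -3.93 ± 0.25 that left 6.56% of the control level. TASOR2 (FAM208B) had 6.03 in its knockdown, against 7.45, with 37.5% left. MPP8 (MPHOSPH8) had 4.70, against 6.52, with 28.2% left. PPHLN1 had 5.27, against 6.57, with 40.8% left. The knockdowns thus differed in depth of silencing, which moves with the comparison between them, and its part in the results below was not tested.

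The promoters of 4 members are printed to show the genes on which the results turn. ZNF829 and ZNF568 had the largest differences and are transcribed away from each other, ZNF850 combined a difference above 1 in 3 knockdowns with many reads per library, and ZNF302 was the member called in the TASOR knockdown. Each sequence is the RefSeq window of GRCh38.p14 from 250 bases before to 50 bases after the gene's start, written 5′ to 3′ on the strand of the gene, with CG dinucleotides in capitals. The windows are chr19:36916242-36916541 (minus strand) for ZNF829, chr19:36916082-36916381 (plus strand) for ZNF568, chr19:36772758-36773057 (minus strand) for ZNF850 and chr19:34677428-34677727 (plus strand) for ZNF302.
ZNF829: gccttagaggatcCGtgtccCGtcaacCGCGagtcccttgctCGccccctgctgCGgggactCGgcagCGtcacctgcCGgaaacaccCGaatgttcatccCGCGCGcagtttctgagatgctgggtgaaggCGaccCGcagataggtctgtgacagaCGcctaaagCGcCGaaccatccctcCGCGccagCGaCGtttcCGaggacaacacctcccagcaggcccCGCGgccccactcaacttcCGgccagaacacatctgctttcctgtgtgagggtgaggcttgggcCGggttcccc
ZNF568: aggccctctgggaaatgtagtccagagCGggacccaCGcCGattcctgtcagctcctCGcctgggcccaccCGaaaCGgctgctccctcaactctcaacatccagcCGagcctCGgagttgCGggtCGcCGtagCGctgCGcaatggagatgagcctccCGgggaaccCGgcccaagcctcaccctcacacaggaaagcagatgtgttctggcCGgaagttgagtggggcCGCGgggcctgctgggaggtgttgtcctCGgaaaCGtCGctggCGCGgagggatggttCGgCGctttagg
ZNF850: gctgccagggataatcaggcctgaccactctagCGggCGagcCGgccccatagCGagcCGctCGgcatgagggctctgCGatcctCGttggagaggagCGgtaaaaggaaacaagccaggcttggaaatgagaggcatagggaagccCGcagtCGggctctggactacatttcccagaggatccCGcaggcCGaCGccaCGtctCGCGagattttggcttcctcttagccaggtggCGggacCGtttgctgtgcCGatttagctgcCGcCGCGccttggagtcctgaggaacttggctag
ZNF302: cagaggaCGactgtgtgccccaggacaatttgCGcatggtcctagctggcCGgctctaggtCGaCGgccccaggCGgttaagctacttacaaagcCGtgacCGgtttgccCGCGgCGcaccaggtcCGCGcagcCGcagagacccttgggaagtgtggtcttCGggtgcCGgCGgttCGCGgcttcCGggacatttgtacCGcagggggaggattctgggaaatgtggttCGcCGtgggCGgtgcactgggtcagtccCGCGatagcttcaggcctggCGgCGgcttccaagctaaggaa

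The windows of ZNF829 and ZNF568 share 140 bases, read on opposite strands. The windows held 27 CG dinucleotides for ZNF829, 25 for ZNF568, 23 for ZNF850 and 28 for ZNF302. A RefSeq window was found for 30 of the 33 members, and ZNF30, ZNF571 and ZNF781 had none. The 11 members called higher in at least 1 knockdown held 14 to 35 CG dinucleotides, with a median of 25, and the 17 tested members with a window and no call held 16 to 30, with a median of 23. The ranges of both sets overlapped over most of their length, and all 35116 RefSeq promoters of the same length had a median of 14. Some windows of uncalled members lay far from the gene's start in the authors' table. The distance was 70365 bases for ZNF420, 37714 for ZNF573, 7617 for ZNF585B and 1831 for ZNF569. Among called members it was at most 187 bases. The letters GAAANNGAAA, a core of interferon response elements, were searched on both strands and stood in 0 of the 30 member windows, against 3.57% of all promoters.

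Members of the cluster were higher than in sgAAVS1 in the TASOR2, MPP8 and PPHLN1 knockdowns, and mostly near control level in the TASOR knockdown. Of the 30 tested members, 1 was called higher in the TASOR knockdown, where 1.95% of the 16433 tested genes were called higher. In the TASOR2 knockdown 7 were higher, against a background of 2.26%. In the MPP8 knockdown 8 were higher, against 1.65%, and in the PPHLN1 knockdown 9 were higher, against 2.88%. Untransduced cells, which had no guide, had 1 member higher than sgAAVS1, against 1.38%. As shares of the 30 these counts were 3.33%, 23.3%, 26.7%, 30.0% and 3.33%, so the TASOR and untransduced shares were near the background and the other 3 lay above it. The counts include ZNF829 and ZNF540, which passed the filter on low values only through knockdown groups. No member was called lower in these 5 comparisons, where 0.341%, 2.03%, 0.316%, 0.615% and 0.237% of all genes were, so that count is near the background. Bulk RNA cannot tell a change in every cell from a larger change in some cells.

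Over the tested members as a set, medians lay above that of all genes in TASOR2, MPP8 and PPHLN1 and level with it in TASOR. In untransduced cells the median also lay above that of all genes, by 0.13. The median difference from sgAAVS1 over the 30 tested members was 0.16 in the TASOR knockdown, 0.74 in TASOR2, 0.47 in MPP8, 0.75 in PPHLN1 and 0.18 in untransduced cells. Over all tested genes the medians were 0.16, 0.07, 0.12, 0.17 and 0.05 in the same order. Relative to the median of all genes, the members stood at 0.35 in MPP8 and 0.58 in PPHLN1 against sgAAVS1, but at 0.19 and 0.32 against untransduced cells, and at 0.29 in PPHLN1 with the filter 2 log2 units higher. In TASOR2 they stood at 0.67 against sgAAVS1, but at 0.40 with the trend on GC content, described further on, removed. The counting interval lay wholly above 0 for 13 tested members in TASOR, 22 in TASOR2, 21 in MPP8, 27 in PPHLN1 and 12 in untransduced cells. Such intervals were common among all genes too, at 51.4%, 35.3%, 40.5%, 56.5% and 22.2%. For TASOR the members' count was thus below the background share, and for the other groups, untransduced cells included, above it. An interval wholly below 0 was seen for 1 member, ZNF607 in the TASOR knockdown (-0.45 ± 0.32), where 1.41% of all genes had one. None was seen in TASOR2 (17.1%), MPP8 (1.27%), PPHLN1 (1.99%) or untransduced cells (9.19%). The highest of the 6 means was in the TASOR2 knockdown for 12 tested members, in PPHLN1 for 11 and in MPP8 for 7, and in none was it the TASOR, untransduced or sgAAVS1 mean. Over all genes the highest mean fell in TASOR2 for 26.3%, in PPHLN1 for 28.1%, in MPP8 for 14.1% and in TASOR for 23.5%. These rankings were made without removing the trend on GC content.

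**Figure D1:**
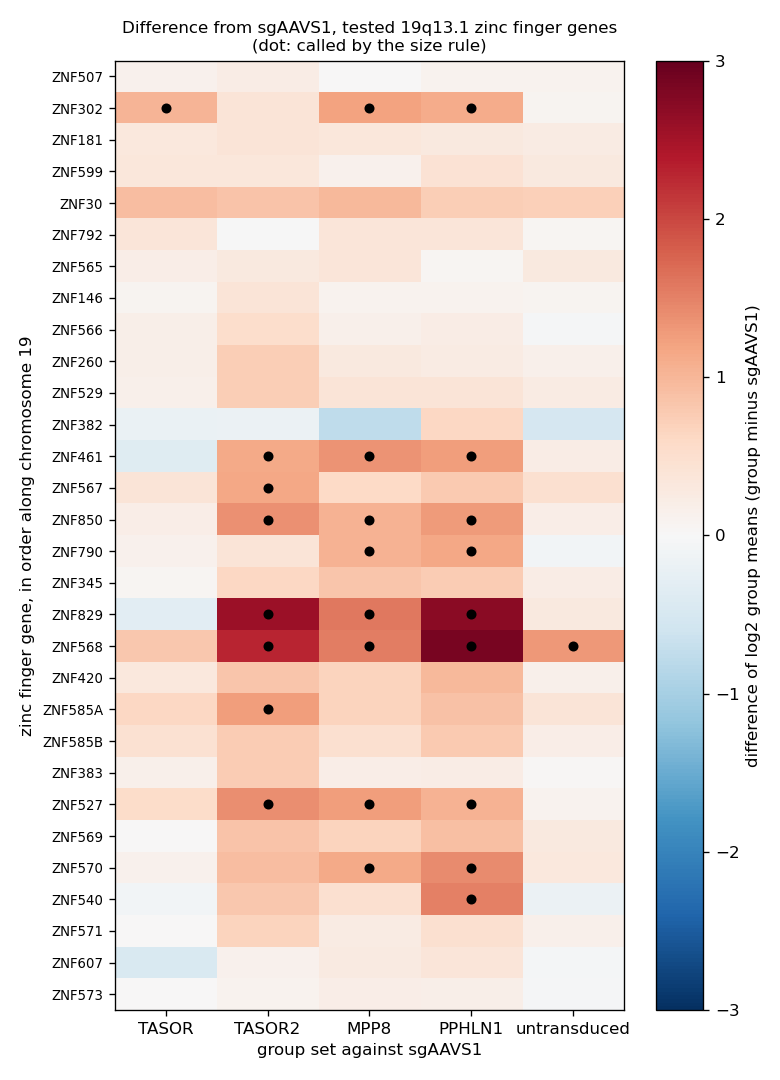
Differences of log2 group means from sgAAVS1 (colour, log2 units) for the 30 tested zinc finger genes (rows, in order along chromosome 19) in the 4 knockdowns and untransduced cells (columns), with a dot where the size rule called the gene. Dots gather between ZNF461 and ZNF540 in the TASOR2, MPP8 and PPHLN1 columns, and the only dot of the TASOR column is ZNF302.

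Most members called higher lay in one stretch, with uncalled members between them, and ZNF302 lay apart. Read along the chromosome, the 16 members from ZNF461 to ZNF540 spanned 977 kb (chromosome 19, 36637192 to 37614097), and 15 of them were tested. In that stretch 0 were called higher in the TASOR knockdown, 7 in TASOR2, 7 in MPP8, 8 in PPHLN1 and 1 in untransduced cells. The median difference there was 0.15 in TASOR, 0.93 in TASOR2, 0.83 in MPP8, 1.04 in PPHLN1 and 0.22 in untransduced cells. The 12 tested members before it, from ZNF507 to ZNF382, held 1 called gene, ZNF302, with medians of 0.19, 0.39, 0.31, 0.33 and 0.12. The 3 tested members that start after the start of ZNF540, namely ZNF571, ZNF607 and ZNF573, held none, with medians of 0.00, 0.13, 0.25, 0.36 and -0.03. Of these 3, ZNF571 (37554782 to 37594790) lies within the span of ZNF540, and so inside the 977 kb. Only ZNF607 and ZNF573 lie beyond it. The borders of these stretches were drawn after the values were seen and carry no test. At the borders of the window itself the differences stayed below 1, with no fall on leaving it. ZNF573, the last member, had 0.00, 0.11, 0.20 and 0.17 in the TASOR, TASOR2, MPP8 and PPHLN1 knockdowns. ZNF546, the next numbered zinc finger gene outside it, had the higher values of 0.57, 0.28, 0.36 and 0.41. On the other side ZNF254, outside the window, had 0.34, 0.45, 0.02 and 0.24, and ZNF536, inside, had no reads in any group.

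ZNF829 and ZNF568 had the largest differences of the cluster. They form a divergent pair whose annotated starts lie 38 bases apart (ZNF829 at 36888124 to 36916291 on the minus strand, ZNF568 at 36916329 to 36998700 on the plus strand). Mouse Zfp568, the counterpart of ZNF568, is a KRAB repressor known for silencing a placental transcript of Igf2. ZNF829 had log2 means of -1.5 in the TASOR knockdown, 1.38 in TASOR2, 0.39 in MPP8, 1.51 in PPHLN1, -0.89 in untransduced cells and -1.19 in sgAAVS1. The other 3 knockdowns were thus above 0, and TASOR stood with both controls below it. The differences from sgAAVS1 were 2.58 ± 1.11 in TASOR2, 1.58 ± 1.22 in MPP8 and 2.70 ± 1.10 in PPHLN1, all called, and -0.31 ± 1.62 in TASOR. In reads per library these are low levels, 2.45, 15.3, 7.75, 17.0, 4.0 and 2.71 in the same order, which is why the intervals are wide. Against untransduced cells the 3 differences were 2.27 ± 1.12, 1.28 ± 1.23 and 2.40 ± 1.11, and ZNF829 was the 1 member called against both controls in TASOR2, MPP8 and PPHLN1 alike. With both control means below 0, ZNF829 entered the tested genes only through knockdown groups. It had to differ to be counted, so its calls carry no independent weight.

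ZNF568 had means of -0.23 in the TASOR knockdown, 1.23 in TASOR2, 0.50 in MPP8, 1.80 in PPHLN1, 0.24 in untransduced cells and -1.05 in sgAAVS1. The sgAAVS1 mean, at 3.0 reads per library, was the lowest of the 6, and untransduced cells were themselves called higher than it by 1.29 ± 1.16. The differences from sgAAVS1 were 2.28 ± 1.09 in TASOR2, 1.55 ± 1.17 in MPP8 and 2.85 ± 1.04 in PPHLN1, and 0.82 ± 1.25 in TASOR, which was not called. Against untransduced cells only the PPHLN1 difference was called, 1.56 ± 0.81, with 0.99 ± 0.86 in TASOR2 and 0.25 ± 0.97 in MPP8. Both genes of the pair were thus called in TASOR2, MPP8 and PPHLN1 against sgAAVS1, and for ZNF568 the TASOR2 and MPP8 calls ended with untransduced cells as the control.

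ZNF850 gave the most precise call. Its means were 6.85 in the TASOR knockdown, 8.02 in TASOR2, 7.69 in MPP8, 7.94 in PPHLN1, 6.86 in untransduced cells and 6.66 in sgAAVS1, from 803, 1526, 1226, 1466, 861 and 628 reads per library. The TASOR and control means lay within 0.20 of each other and the other 3 knockdowns stood apart. The differences from sgAAVS1 were 1.36 ± 0.08 in TASOR2, 1.03 ± 0.09 in MPP8 and 1.28 ± 0.08 in PPHLN1, against 0.19 ± 0.10 in TASOR and 0.20 ± 0.09 in untransduced cells. Against untransduced cells TASOR2 (1.16 ± 0.09) and PPHLN1 (1.08 ± 0.09) were called, and MPP8 (0.83 ± 0.09) was not. ZNF850 (36714383 to 36772825, minus strand) overlaps ZNF567 (36687612 to 36727701, plus strand). ZNF567 had means of 4.25, 5.02, 4.46, 4.65, 4.34 and 3.86 in the TASOR, TASOR2, MPP8, PPHLN1, untransduced and sgAAVS1 groups, and was called in TASOR2 alone, by 1.16 ± 0.22. The library kit keeps the strand, but the use of strand in counting was not given in the sources used here, so reads of overlapping members on opposite strands may be shared. Such an overlap was found for 21 of the 33 members and for 7 of the 11 called ones. ZNF302, ZNF461, ZNF568 and ZNF527 are the called members without one.

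ZNF461 and ZNF527 were also called in TASOR2, MPP8 and PPHLN1 alike. ZNF461 (36637192 to 36666853, minus strand) opens the stretch, with means of 0.20 in the TASOR knockdown, 1.71 in TASOR2, 1.91 in MPP8, 1.82 in PPHLN1, 0.79 in untransduced cells and 0.57 in sgAAVS1. TASOR had the lowest mean, and the differences were 1.14 ± 0.71 in TASOR2, 1.34 ± 0.69 in MPP8, 1.25 ± 0.69 in PPHLN1 and -0.37 ± 0.89 in TASOR. ZNF527 (37371061 to 37393066, plus strand) had means of 1.69, 2.54, 2.38, 2.17, 1.24 and 1.13 in the same order of groups. All 4 knockdowns were above both controls, by 1.41 ± 0.56 in TASOR2, 1.25 ± 0.57 in MPP8 and 1.04 ± 0.59 in PPHLN1 against sgAAVS1, and by 0.55 ± 0.61 in TASOR, which was not called.

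A further set was called in some of the 3 knockdowns. ZNF790 had means of 1.75 in the TASOR knockdown, 2.0 in TASOR2, 2.66 in MPP8, 2.78 in PPHLN1, 1.55 in untransduced cells and 1.62 in sgAAVS1. It was higher in MPP8 by 1.04 ± 0.50 and in PPHLN1 by 1.16 ± 0.49, and TASOR2 (0.38 ± 0.56) was not called. ZNF570 showed the same set of calls, with means of 1.06, 1.86, 2.07, 2.35, 1.24 and 0.92, and rose by 1.15 ± 0.62 in MPP8 and by 1.43 ± 0.60 in PPHLN1. ZNF540 was called in PPHLN1 alone, with a mean of 1.46 there against -0.14 in TASOR, 0.76 in TASOR2, 0.42 in MPP8, -0.23 in untransduced cells and -0.05 in sgAAVS1, a difference from sgAAVS1 of 1.51 ± 0.83. ZNF585A was called in TASOR2 alone, by 1.26 ± 0.23, with means of 4.33, 4.98, 4.38, 4.61, 4.11 and 3.72. ZNF585A and its neighbour ZNF585B are close copies, so reads may be split between them, and ZNF585B differed from sgAAVS1 by 0.46, 0.77, 0.47 and 0.80 in TASOR, TASOR2, MPP8 and PPHLN1, with no call. A call in one knockdown and not in another does not show that the 2 differ, and the direct comparisons are given further on.

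**Figure D2:**
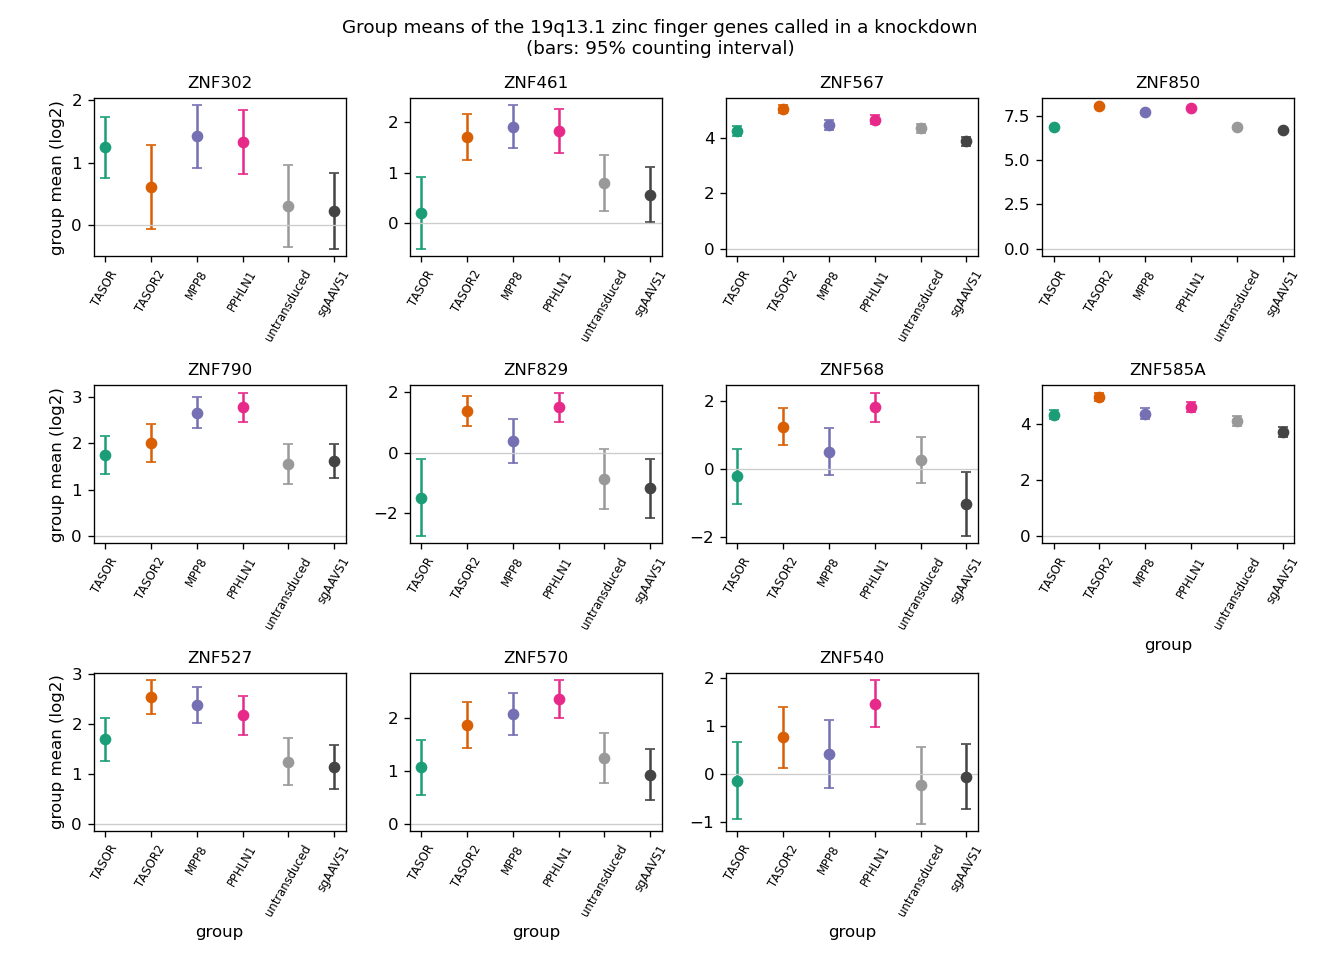
Log2 group means (y axis, each panel on its own scale) of the 11 zinc finger genes called higher in at least 1 knockdown, in the 4 knockdowns, untransduced cells and sgAAVS1 (x axis), with bars for the 95% counting interval of each mean. For ZNF850, TASOR2, MPP8 and PPHLN1 stand at 7.69 or more and the other 3 groups at 6.86 or less, and for ZNF829 the TASOR mean lies with the controls.

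ZNF302 was the member called in the TASOR knockdown, and it lies apart from the stretch, at 34677639 to 34686397 on the plus strand. Its means were 1.25 in TASOR, 0.61 in TASOR2, 1.42 in MPP8, 1.33 in PPHLN1, 0.31 in untransduced cells and 0.22 in sgAAVS1. It was higher than sgAAVS1 in TASOR by 1.03 ± 0.78, in MPP8 by 1.20 ± 0.79 and in PPHLN1 by 1.11 ± 0.80, and TASOR2 (0.39 ± 0.90) was not called. These means rest on 16.5, 8.94, 15.9, 15.0, 9.17 and 7.23 reads per library. Against untransduced cells the TASOR difference was 0.94 ± 0.82 and was not called.

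The other 19 tested members were called in no knockdown. Some came close: ZNF420, known as a negative regulator of p53, differed by 0.96 ± 0.22 in PPHLN1, and ZNF569 by 0.90 ± 0.26. ZNF30 differed by 0.93 ± 0.20 in TASOR, 0.86 ± 0.21 in TASOR2, 0.98 ± 0.20 in MPP8 and 0.74 ± 0.21 in PPHLN1, but also by 0.70 ± 0.20 in untransduced cells. For ZNF30 the sgAAVS1 mean of 4.22 was the one apart, below the 5 other means at 4.93 to 5.21. The sgAAVS1 mean was the lowest of the 6 in 21 of the 30 tested members, where it was the lowest in 32.5% of all tested genes.

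Against both controls, 0 members were called higher in the TASOR knockdown (0.536% of all genes), 3 in TASOR2 (0.998%), 5 in MPP8 (0.706%) and 8 in PPHLN1 (1.19%). The 3 in TASOR2 were ZNF850, ZNF829 and ZNF527. The 5 in MPP8 were ZNF302, ZNF461, ZNF790, ZNF829 and ZNF527. The 8 in PPHLN1 were ZNF302, ZNF461, ZNF850, ZNF790, ZNF829, ZNF568, ZNF570 and ZNF540. In all, 9 of the 11 members kept a call in at least 1 knockdown, and ZNF567 and ZNF585A did not. Among the 9 are ZNF829 and ZNF540, which passed the filter only through knockdown groups. With untransduced cells as the sole control, 0, 3, 5 and 9 members were higher, beside 1.28%, 1.37%, 1.25% and 1.56% of all genes. No member was lower, either against untransduced cells alone (0.84%, 3.26%, 1.02% and 0.822% of all genes) or against both controls (0.14%, 1.31%, 0.128% and 0.304%).

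Several calls lay close to the threshold. With each column centred on its median, the MPP8 differences of ZNF850 (0.87), ZNF790 (0.89) and ZNF570 (0.99) were no longer called, nor were the PPHLN1 differences of ZNF302 (0.89), ZNF790 (0.94) and ZNF527 (0.82), nor the only TASOR call. Adding 1 unit before the log2, which shrinks differences at low levels, left ZNF850 as the single MPP8 call and ZNF850, ZNF829, ZNF568 and ZNF570 as the 4 PPHLN1 calls. In TASOR2 the same step ended the call of ZNF461 (0.78) and of no other member.

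Of the members with the most reads, only ZNF850 was called. By mean over the 6 groups the highest were ZNF146, ZNF850 and ZNF507, an order that also depends on transcript length. ZNF146, a protein made of zinc fingers alone, had means of 7.36, 7.68, 7.41, 7.40, 7.39 and 7.29 in TASOR, TASOR2, MPP8, PPHLN1, untransduced cells and sgAAVS1. The largest of its differences from sgAAVS1 was 0.39 ± 0.08 in TASOR2. ZNF507 had 7.30, 7.38, 7.19, 7.28, 7.27 and 7.16, and no difference exceeded 0.22 ± 0.08. ZNF260, another gene without KRAB, differed by 0.73 ± 0.13 in TASOR2 and by 0.18 to 0.30 in the other 3 knockdowns. ZNF573, ZNF507 and ZNF565 had the smallest differences of the tested members: the largest of any knockdown was 0.20 for ZNF573, 0.22 for ZNF507 and 0.37 for ZNF565.

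ZNF536, ZNF793 and ZNF781 did not reach the filter on low values. ZNF536, a repressor known from neurons, was at no reads in all 6 groups, which allows up to 3 counts over a group and a log2 mean of up to -2.21 in TASOR, -1.97 in TASOR2, -1.98 in MPP8, -1.99 in PPHLN1, -2.30 in untransduced cells and -2.63 in sgAAVS1. ZNF793 had at most 1.34 reads per library in any group. ZNF781 had means of -1.80, -1.39, -0.57, -0.62, -0.08 and -1.08, highest in untransduced cells. ZNF829 and ZNF540 passed the filter only through knockdown groups, since both control means were below 0, so they had to differ to be counted.

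The direct comparisons of the knockdowns use no control library. In TASOR against TASOR2, 0 members were higher (5.23% of all genes) and 4 were lower (1.39%): ZNF829 by -2.89 ± 1.38, ZNF461 by -1.51 ± 0.84, ZNF568 by -1.47 ± 0.98 and ZNF850 by -1.17 ± 0.09. With the trend on GC content removed, 3 were lower. In MPP8 against TASOR, 3 were higher (0.803%) and 0 lower (1.06%): ZNF829 by 1.89 ± 1.47, ZNF461 by 1.70 ± 0.82 and ZNF570 by 1.01 ± 0.66. In PPHLN1 against TASOR, 7 were higher (1.38%) and 0 lower (0.961%). These were ZNF829 by 3.01 ± 1.37, ZNF568 by 2.03 ± 0.93, ZNF461, ZNF540, ZNF570, ZNF850 by 1.09 ± 0.09 and ZNF790. Wherever a difference was called, the member was thus lower in TASOR than in the other knockdown. The calls include ZNF829 in all 3 comparisons and ZNF540 in PPHLN1 against TASOR. Both passed the filter only through knockdown groups, so their calls carry no independent weight.

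Among the other 3 knockdowns few members were called. Between MPP8 and TASOR2, 0 were higher (3.96%) and 0 lower (1.52%), and between PPHLN1 and TASOR2, 0 were higher (5.07%) and 0 lower (1.42%). With the trend on GC content removed, 1 was higher in each, ZNF302 in MPP8 and ZNF790 in PPHLN1. The lack of calls does not show that they are alike. Intervals were wide at low counts: ZNF829, for example, differed by -1.0 ± 0.88 between MPP8 and TASOR2 and by 0.13 ± 0.70 between PPHLN1 and TASOR2. Differences clear of 0 also fell short of 1 between MPP8 and TASOR2, as for ZNF585A (-0.60 ± 0.23), ZNF383 (-0.55 ± 0.19) and, in the other direction, ZNF792 (0.39 ± 0.10). The members' median there was -0.21, against 0.06 over all genes, with 10 of the 30 above 0. With the trend on GC content removed that median was -0.02. ZNF850, with many reads, differed by -0.33 ± 0.08 between MPP8 and TASOR2 and by -0.08 ± 0.07 between PPHLN1 and TASOR2. In PPHLN1 against MPP8, 4 were higher (0.864%) and 0 lower (0.59%): ZNF382 by 1.39 ± 1.14, ZNF568 by 1.30 ± 0.82, ZNF829 by 1.12 ± 0.87 and ZNF540 by 1.04 ± 0.86. Of these, ZNF829 and ZNF540 passed the filter only through knockdown groups. ZNF382, a KRAB repressor of the first stretch, had means of 0.91 in PPHLN1 and -0.48 in MPP8, and neither was called against sgAAVS1 (0.29).

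**Figure D3:**
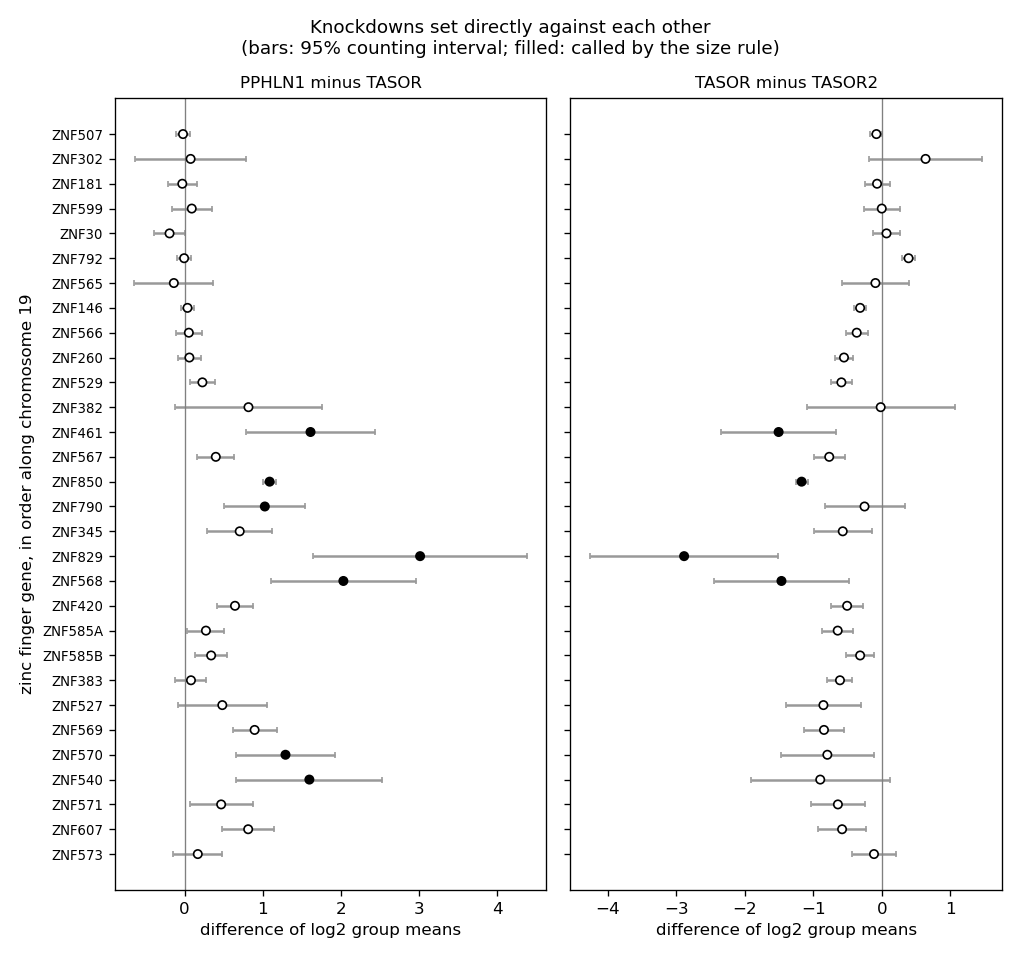
Differences of log2 group means (x axis, log2 units) between PPHLN1 and TASOR (left) and between TASOR and TASOR2 (right) for the 30 tested zinc finger genes (rows, in order along chromosome 19), with bars for the 95% counting interval and filled points where the size rule made a call. The 7 filled points on the left lie at 1.03 or more and the 4 on the right at -1.17 or less.

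Divergent neighbours were compared because ZNF829 and ZNF568 share their start region. The cluster held 5 pairs with starts on opposite strands within 2000 bases of each other. In every pair but ZNF829 and ZNF568 the genes overlap at their starts, so reads of the pair may be shared. Against sgAAVS1 in the PPHLN1 knockdown, ZNF829 and ZNF568 differed by 2.70 and 2.85, ZNF790 and ZNF345 by 1.16 and 0.76, and ZNF569 and ZNF570 by 0.90 and 1.43. ZNF529 and ZNF382 differed by 0.38 and 0.63, and ZNF585B and ZNF383 by 0.80 and 0.23. In TASOR2 the members of a pair stood at 2.58 and 2.28, 0.38 and 0.63, 0.85 and 0.93, 0.75 and -0.17, and 0.77 and 0.76 in the same order of pairs. In MPP8 they stood at 1.58 and 1.55, 1.04 and 0.83, 0.68 and 1.15, 0.40 and -0.77, and 0.47 and 0.20. Apart from the first pair, at most 1 gene of a pair was called in any knockdown.

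Set beside other genes, the cluster's shares of calls in TASOR2, MPP8 and PPHLN1 lay nearest to those of zinc finger genes elsewhere on chromosome 19. Of 201 tested numbered zinc finger genes on the rest of chromosome 19, 3.48% were higher in TASOR, 11.9% in TASOR2, 16.9% in MPP8, 22.9% in PPHLN1 and 1.49% in untransduced cells. Of 230 on other chromosomes the shares were 3.04%, 3.48%, 2.61%, 2.61% and 0.87%. Of 122 other tested genes inside the window they were 2.46%, 0.82%, 3.28%, 4.92% and 0.00%. The 3 unnumbered zinc finger genes of the window, ZFP14, ZFP82 and ZFP30, were called in no knockdown, and the largest of their differences was 0.58 ± 0.29 for ZFP14 in PPHLN1. No test of these differences between sets was run.

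**Figure D4:**
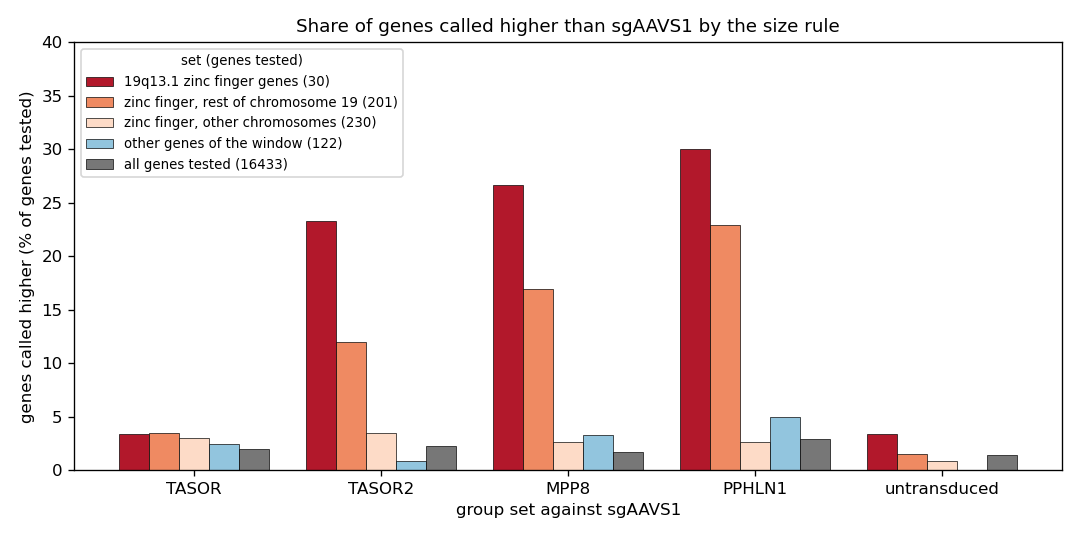
Share of tested genes called higher than sgAAVS1 by the size rule (y axis, percent) in the 4 knockdowns and untransduced cells (x axis), for the 19q13.1 zinc finger genes, numbered zinc finger genes of the rest of chromosome 19 and of other chromosomes, other genes of the window and all tested genes. In TASOR2, MPP8 and PPHLN1 the cluster stands at 23.3%, 26.7% and 30.0%, above every other set drawn.

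Genes of the pathway that KRAB zinc finger proteins use were called in no knockdown apart from the targets. Of 29 HUSH and co-repressor genes, all 29 were tested, and in each knockdown 0 were called higher and 1 was called lower, the gene targeted there. In untransduced cells 0 were called in either direction. TRIM28 had means of 8.36 in TASOR, 8.36 in TASOR2, 8.49 in MPP8, 8.49 in PPHLN1, 8.21 in untransduced cells and 8.34 in sgAAVS1. Differences short of a call reached 0.73 ± 0.07 for TASOR2 (FAM208B) in the PPHLN1 knockdown, and 0.59 ± 0.07 for KIAA1551 (RESF1, a SETDB1 partner), 0.54 ± 0.13 for the H3K9 methyltransferase SUV39H2 and 0.52 ± 0.07 for the SETDB1 partner ATF7IP in TASOR2. IRF2, an interferon regulatory factor, differed by 0.52 ± 0.15 in PPHLN1.

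Differences from sgAAVS1 moved with base composition in every comparison, most strongly by rank in TASOR2 and untransduced cells, and the part of this in the results was not tested beyond removing the trend. Transcripts of the 30 tested members had a median GC content of 39.6% (36.0% to 51.2%), against 49.4% over 13286 genes with a value. Over 8847 genes with a mean above 5, Spearman's rho between the difference from sgAAVS1 and GC content was 0.17 in TASOR, -0.71 in TASOR2, 0.31 in MPP8, 0.33 in PPHLN1 and -0.55 in untransduced cells, a correlation across genes, which are not independent. With the trend on GC content removed, the members called higher numbered 1 in TASOR, 5 in TASOR2, 9 in MPP8, 10 in PPHLN1 and 1 in untransduced cells, against 1.62%, 1.51%, 1.58%, 2.68% and 1.29% of genes with a value. In TASOR2 they were ZNF850, ZNF829, ZNF568, ZNF585A and ZNF527, and the median difference of the 30 members there became 0.48. In MPP8 and PPHLN1 the medians became 0.49 and 0.77. In TASOR against TASOR2 the median of the 30 became -0.27 in place of -0.56, and in PPHLN1 against TASOR2 it became 0.22 in place of 0.04.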

How the data were processed

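RNA from K562 cells was sequenced after ribosomal RNA depletion with a strand-keeping kit, per the labels' protocols. Reads were handled with cutadapt and Bowtie2 and the build was hg38, per the submitters' processing notes; versions, annotation and strand setting were not given in the sources used here. Per the file headers, the deposited table holds group columns and no libraries (35805 rows). The untransduced column is a mean on the authors' log2 scale. The 5 other columns hold a deposited score, a quotient of that group's mean over the untransduced mean, so each was multiplied back. Low values served as a partial check: in every column 100% of 17791 to 18390 low values matched means of log2 whole reads within 0.001 log2 units, with 0 reads entered as 0.9. The value of 1 read and the number of libraries were set from the lowest value and the first step above it. Rows at those values are among the ones checked and matched by construction. Depths take 1 unit as 1 read in 1000000. On the linear scale the columns sum to between 1182967 and 1323009, so depths are approximate, while counting intervals use only the recovered reads and the inferred number of libraries.

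Of rows sharing a symbol the one with the highest mean was kept (87 dropped). Genes with at least 1 of 6 means above 0 were tested. limma had been planned for single libraries and could not be run on group means, so the size rule took its place, with all differences computed on the whole table. All 31 members with the same coordinates in GENCODE v29, and the other 2 by symbol, are annotated as protein coding. GC content, annotation and promoters came from tables of RefSeq and GENCODE. Members and gene lists were chosen with earlier results of these data known. Named members are those called in any knockdown, the 3 with the highest mean, the 3 with the smallest differences, those left out by the filter, and some near the threshold or chosen after their values were seen. Alternatives were another control, scaling, filter, pseudocount, size of difference and removal of the GC trend. Python 3.11.15, numpy 2.4.6, pandas 2.3.3, scipy 1.17.1 and matplotlib 3.10.9 were used.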

Additional observations from a re-analysis of the deposited data

How the results depend on the processing

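No paired analysis was possible because the columns hold group means without replicates, and for the same reason no replicate could be left out in turn. No called difference of a single member from sgAAVS1 changed direction under the alternatives tried, and directions of single members in the direct comparisons were not recomputed. The counts of members higher than in sgAAVS1 moved with the settings. For TASOR (1 member) the count was 0 after median centring, after quantile normalization, with the filter 2 log2 units higher, with a pseudocount of 1, with a difference of at least 1.5, against untransduced cells and against both controls, and 3 with a difference of at least 0.58. For TASOR2 (7) it was 4 with the higher filter, 17 at 0.58, 2 at 1.5, and 3 against untransduced cells and against both controls. For MPP8 (8) it was 5 after median centring and after quantile normalization, 4 with the higher filter, 1 with the pseudocount, 14 at 0.58, 2 at 1.5, and 5 against untransduced cells and against both controls. For PPHLN1 (9) it was 5 after quantile normalization, 4 with the higher filter, 4 with the pseudocount, 16 at 0.58 and 3 at 1.5. For untransduced cells (1) it was 0 after quantile normalization, with the higher filter, with the pseudocount and at 1.5, and 2 at 0.58. Of direct comparisons, MPP8 against TASOR (3 higher) gave 1 with the higher filter and 1 with the pseudocount, PPHLN1 against TASOR (7) gave 3 and 4, and PPHLN1 against MPP8 (4) gave 0 and 0. A higher filter removes members and a pseudocount shrinks differences of low genes by construction. For the other settings the cause was not tested. Relative to the median of all genes, the members' median became 0.24 without a filter for TASOR, 0.40 with the GC trend removed for TASOR2 and 0.34 without a filter for untransduced cells, against 0.00, 0.67 and 0.13. With untransduced cells as the control it became 0.19 for MPP8 and 0.32 for PPHLN1, and with the higher filter 0.29 for PPHLN1, against 0.35 and 0.58. Depth limits ZNF829, ZNF382, ZNF540, ZNF568 and ZNF302, which had under 21 reads per library in every group.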

Other observations

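Several genes of the window that are not numbered zinc finger genes were also higher, and they were chosen here after their values were seen. CTD-2162K18.4, a plus-strand gene that starts 328 bases from the start of ZNF850 and runs away from it, had log2 means of -2.37 in the TASOR knockdown, -0.47 in TASOR2, 1.57 in MPP8, 1.91 in PPHLN1, -2.96 in untransduced cells and -2.21 in sgAAVS1. It was higher than sgAAVS1 by 3.77 ± 1.49 in MPP8 and by 4.12 ± 1.47 in PPHLN1, and the control mean rests on 1.34 reads per library. CTD-3064H18.4, which overlaps ZNF793 on the opposite strand and starts 2235 bases from ZNF540, was higher by 2.38 ± 1.36 in TASOR, 3.37 ± 1.30 in MPP8 and 3.89 ± 1.27 in PPHLN1, with 1.82 reads per library in sgAAVS1. HKR1, a zinc finger gene whose symbol carries no ZNF number, lies inside the stretch from ZNF461 to ZNF540 and was higher by 1.03 ± 0.52 in MPP8 and by 1.45 ± 0.49 in PPHLN1. Against untransduced cells HKR1 was not called, at 0.42 ± 0.49 and 0.83 ± 0.46. LINC00665 was higher by 1.66 ± 0.23 in PPHLN1 and LINC01535 by 1.94 ± 0.93, and both were also called there against untransduced cells (1.20 ± 0.23 and 2.64 ± 1.23). CTD-2630F21.1 was higher by 1.23 ± 0.67 in both MPP8 and PPHLN1, while TASOR (0.83 ± 0.69) and TASOR2 (0.36 ± 0.78) were not called against sgAAVS1. It was called in all 4 knockdowns against untransduced cells. Untransduced cells were themselves called lower than sgAAVS1 for this gene, by -1.32 ± 1.06, with means of -0.66 and 0.66. Other genes of the window followed TASOR instead. CCER2 was higher by 2.24 ± 1.08 in TASOR and 1.28 ± 1.23 in TASOR2, with no call in MPP8 or PPHLN1. LRFN3 was higher by 1.18 ± 0.80 in TASOR alone, and was not called there against untransduced cells (0.66 ± 0.76). CTD-2162K18.4, CTD-3064H18.4, LINC01535 and CCER2 had both control means below 0 and passed the filter only through knockdown groups, so they had to differ to be counted.

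Genes of the window that were lower lay outside the zinc finger stretch. In the TASOR2 knockdown 6 of the 122 other tested genes were lower than in sgAAVS1, against 2.03% of all genes. They were TSHZ3 (-1.11), CTD-2527I21.5 (-1.32), FXYD1 (-1.41), CTD-2527I21.4 (-1.18), GGN (-1.14) and MAP4K1 (-1.03). Against both controls 5 were lower, beside 1.31% of all genes, and MAP4K1 was not called against untransduced cells (-0.44 ± 0.74). The part of the GC trend in these differences was not tested. FXYD1, which encodes the sodium pump regulator phospholemman, and both CTD-2527I21 genes start within 1 kb of each other and overlap, so they are not independent.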
